A study of Mus musculus with 6 samples.

Results

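Protein tyrosine phosphatases (PTPs) and dual-specificity phosphatases were followed in CD4+ dendritic cells (DC) of the mouse spleen, with and without the transcription factor Runx3. Members were the genes whose symbol starts with Ptpn or Dusp and a digit, or with Ptpr and a letter, taken from probe sets annotated to 1 gene. They numbered 61 of the 19938 such genes on the array and were read by 76 of its 35399 probe sets. A gene with several probe sets was represented by the brightest over the arrays, except that all 12 probe sets of Ptpn3 are described. A member counted as measured where at least 1 array reached a log2 value of 6.5, the background level of the study's methods, and 32 of the 61 did so.

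The study asked which genes depend on Runx3 in CD4+ DC. RNA of 6 male mice aged 6 weeks was hybridised to 6 Affymetrix arrays, 3 from Runx3-/- mice and 3 from wild type (WT, Runx3+/+) mice. Each Runx3-/- mouse had a WT littermate, and the numbers 1 to 3 name the litter. The Runx3 loss was carried in the germ line, so all cells of the Runx3-/- animals carried it and not DC alone. DC were enriched with magnetic beads and then sorted by CD11c, MHCII, CD4 and CD8. An Esam population appears in the labels too, and whether Esam belonged to the gate is not settled here.

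PTPs remove phosphate from tyrosine and thereby oppose, or in some cases switch on, kinases such as those of the Src and JAK families. Receptor-type PTPs cross the membrane and carry outer domains, the non-receptor PTPs are guided by SH2, FERM or proline-rich parts, and dual-specificity phosphatases also act on serine and threonine. Among the last, the MAP kinase phosphatases switch off ERK, JNK and p38, and in myeloid cells several of them are induced by the same signals that they later damp.

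Of the 32 measured members, 2 changed in Runx3-/- DC with genotype as the only term (adjusted p 0.014 and 0.013, limma), and neither passed once the litter was entered as a block (0.074 each). Ptpn3, a cytosolic PTP with a FERM and a PDZ domain, fell 2.15-fold, and Ptprm, a receptor-type PTP that mediates adhesion between like cells, rose at least 1.25-fold. The upstream windows of both genes are shown because they are the only members that passed the test. They come from RefSeq (GRCm38.p6), each 300 bases long with 250 before and 50 after the annotated start, and capitals mark TGACGT, the motif of zDC (Zbtb46), a factor of classical DC. The Ptpn3 window lies at chr4:57301788-57302087 and the Ptprm window at chr17:67354410-67354709, both read on the minus strand.
Ptpn3: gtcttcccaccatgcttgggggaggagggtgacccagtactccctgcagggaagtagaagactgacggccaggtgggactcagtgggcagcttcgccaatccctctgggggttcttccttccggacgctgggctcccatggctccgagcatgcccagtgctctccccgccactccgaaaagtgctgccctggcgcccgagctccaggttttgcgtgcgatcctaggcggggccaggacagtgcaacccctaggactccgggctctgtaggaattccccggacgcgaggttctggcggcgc
Ptprm: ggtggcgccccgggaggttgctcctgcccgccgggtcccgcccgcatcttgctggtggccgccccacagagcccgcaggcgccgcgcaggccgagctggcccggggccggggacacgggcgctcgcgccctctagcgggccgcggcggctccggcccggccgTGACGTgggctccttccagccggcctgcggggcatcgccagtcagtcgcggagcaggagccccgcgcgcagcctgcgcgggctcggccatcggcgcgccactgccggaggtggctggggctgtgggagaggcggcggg

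TGACGT or its reverse complement ACGTCA stood once in the Ptprm window, its last base 83 bases before the start, and not in the Ptpn3 window. It occurs in 7.51% of the 32851 promoter windows and in 11 of the 66 windows found for 49 of the 61 members. The RUNX motif TGTGGT, searched with its reverse complement ACCACA, was in neither window. It occurs in 16.8% of all windows and in 7 of the 66 members' windows, 2 of them of measured members, Dusp12 and Ptpn22. Neither motif contains the other. A match in these letters is a description and not evidence of binding. GC content was 65.3% in the Ptpn3 window and 80.7% in the Ptprm window.

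Array medians lay between 6.57 and 6.65, which RMA sets close together by construction. Runx3 itself stood at 9.16, 9.30 and 9.16 in Runx3-/- DC, against 11.24, 11.22 and 11.11 in WT DC, a log2 change of -1.98 (SE 0.08, limma, adjusted p = 0.0027, and 0.061 with the litter as a block). This left 25.3% of the WT level, and which part of the transcript the probe set reads was not examined. The summed linear level of 11 markers of CD4+ classical DC was 42460 to 45220 in Runx3-/- and 44300 to 46980 in WT arrays, with only Dcstamp below background and only Irf4 called (log2 change -0.62). Markers of red pulp macrophages summed to 13410 to 16490 in Runx3-/- and 8258 to 11130 in WT arrays, with Spic, Axl, Mertk and Cd5l called higher (4 of 10 measured) and Cd163 below background. Cd5l counts as measured only through its Runx3-/- arrays. Monocyte markers summed to 6225 to 6880 in Runx3-/- and 3423 to 4610 in WT arrays, with Cx3cr1 called (1 of 4). Plasmacytoid DC markers summed to 1496, 1827 and 3836 in Runx3-/- arrays, against 1333, 1433 and 1434 in WT arrays, and none of the 5 was called. Runx3-/- 3 stood apart here, with Siglech at 10.18, against 7.46 and 8.18 in the other Runx3-/- arrays. CD8+ DC markers summed to 1208 to 1710 in Runx3-/- and 1046 to 1100 in WT arrays, highest again in Runx3-/- 3, with none of 5 measured called. Of the B cell list Pax5 and Ebf1 were below background on every array, while Cd79b stood at 10.09 to 10.22 in Runx3-/- and 9.43 to 9.81 in WT arrays and Ms4a1 at 8.52 to 8.63 in Runx3-/- and 7.52 to 8.70 in WT arrays, neither of them called. Of the T cell list Cd3d, Cd3e, Cd3g and Bcl11b were below background and Cd5 was measured, and none of 5 NK cell and 5 neutrophil markers reached background. What part these cells have in the results below was not tested.

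With genotype as the only term, 1 member was higher and 1 lower at an adjusted p of 0.05, adjusted over all 19149 tested probe sets (limma). Over the brightest probe sets of all 9922 measured genes 2.27% were called, 1.36% higher and 0.907% lower, and over all probe sets 1.56%. The 2 members thus make 6.25% of 32, a share that rests on 2 genes. Both calls were lost when the litter was entered as a replicate block, where the adjusted p was 0.074 for each and 0 members passed, with 8 higher and 4 lower at an unadjusted p of 0.05. Both were also lost when Runx3-/- 1, Runx3-/- 3 or WT 1 was left out, with adjusted p of 0.056 to 0.078.

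At an unadjusted p of 0.05, 12 of the 32 members passed, 7 higher and 5 lower, against 19.4% of all measured genes (7.59% higher and 11.8% lower). The Runx3-/- and WT values did not overlap for 14 members, 8 higher and 6 lower, against 28.5% of all measured genes (9.86% higher and 18.6% lower). Ptprm and the MAP kinase phosphatase Dusp9 count as measured only through their Runx3-/- arrays. Of the other 30 members, 1 was called, 10 passed unadjusted and 12 did not overlap. The difference between littermates had 1 sign in all 3 litters for 23 members (15 higher and 8 lower in Runx3-/-), against 51.2% of all measured genes. The median log2 change was 0.02 over the 32 members and -0.03 over all measured genes.

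**Figure D1:**
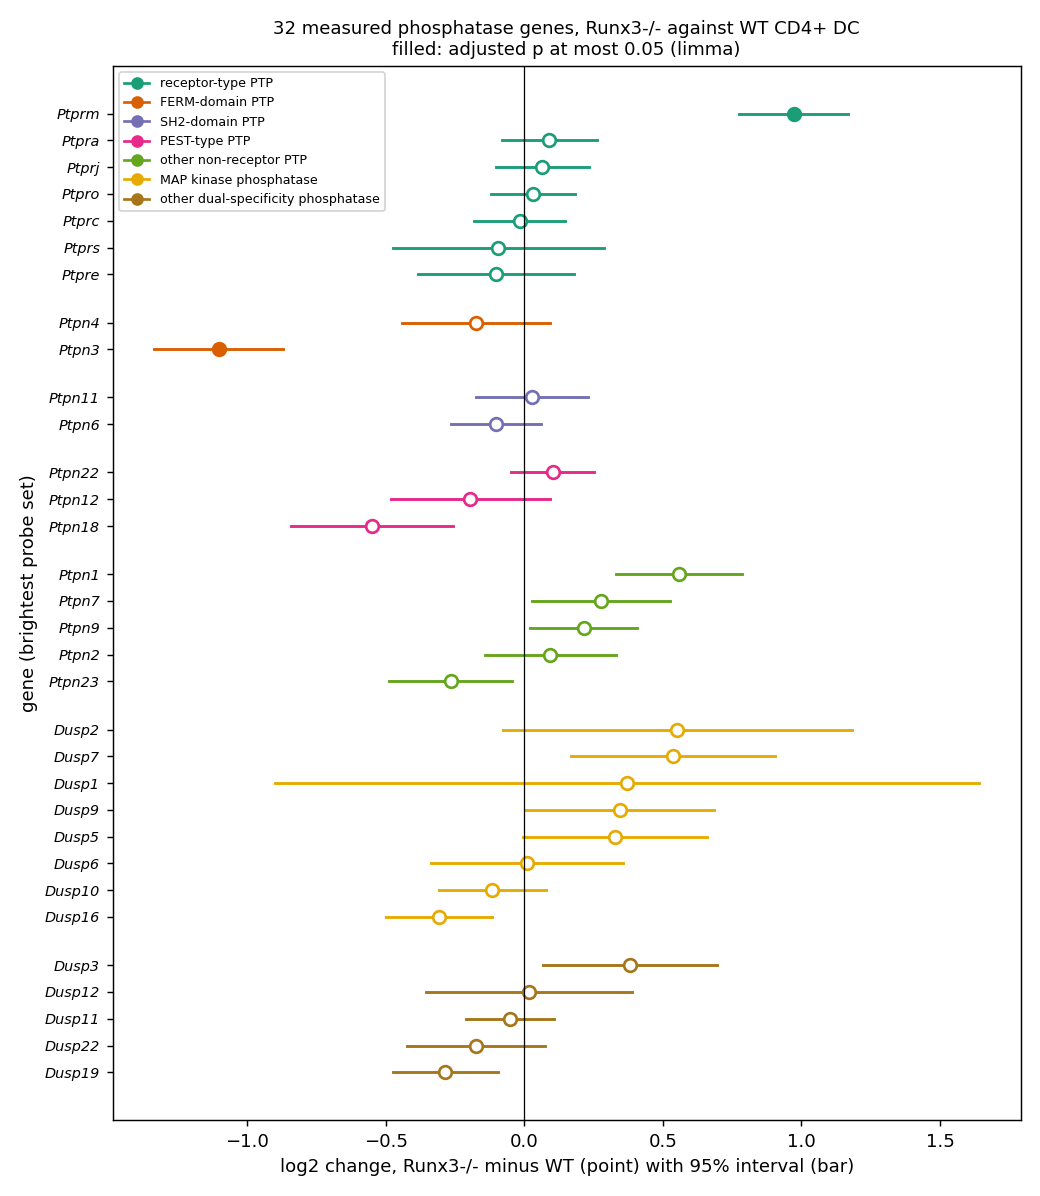
Log2 change (Runx3-/- minus WT, x axis) of the 32 measured phosphatase genes, 1 row each and coloured by role, with the 95% interval from limma as a bar (n = 3 arrays each). Filled points passed an adjusted p of 0.05, namely Ptprm at 0.97 and Ptpn3 at -1.10, and the other 30 lie between -0.55 and 0.56, with the widest interval for Dusp1.

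Ptpn3 was lower in every Runx3-/- array. On its brightest probe set (10513166) the log2 values were 9.23, 9.14 and 9.16 in Runx3-/- DC, against 10.37, 10.10 and 10.38 in WT DC. All 3 Runx3-/- values lay below all 3 WT values. The log2 change was -1.10 (SE 0.10, 95% interval -1.34 to -0.87, limma, adjusted p = 0.014), rank 26 by p among the 19149 probe sets. In bulk RNA of sorted cells, fewer cells with Ptpn3 RNA and less of it per cell cannot be told apart.

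The other 11 Ptpn3 probe sets gave the same direction. The log2 change ranged from -1.50 on 10513158 to -0.72 on 10513143 with a median of -1.09, which is 1.64-fold to 2.84-fold lower. All 12 passed an unadjusted p of 0.05 (15.9% of all probe sets did) and had no overlap between the genotypes (22.4% of all), and 7 passed the adjusted threshold. The 5 that did not had adjusted p of 0.052 to 0.107, and the highest among those called was 0.0496. With the litter block none of the 12 passed the adjusted threshold, while all 12 passed unadjusted. The count of 7 became 0 without Runx3-/- 1, Runx3-/- 3 or WT 1, 4 without Runx3-/- 2 and 2 without WT 3, and in each of these fits all 12 passed unadjusted. The probe sets read RNA of 1 gene from the same 6 extracts, so they are repeated readings and not replicates.

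The mean over the 12 probe sets was 7.88, 7.99 and 8.14 in Runx3-/- DC, against 9.13, 8.83 and 9.35 in WT DC. That is 46.6% of the WT level, with an exact two-sided permutation p of 0.1, the smallest that 3 arrays against 3 can give. Littermates differed by -1.25, -0.84 and -1.21 in litters 1, 2 and 3. The difference was thus smallest in litter 2, whose WT array was the lowest WT array on all 12 probe sets. The WT array of litter 3 was the highest WT array on 11 of them. On probe set 10513158 Runx3-/- 1 stood at 6.30, below background, and every other Ptpn3 value lay above it.

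**Figure D2:**
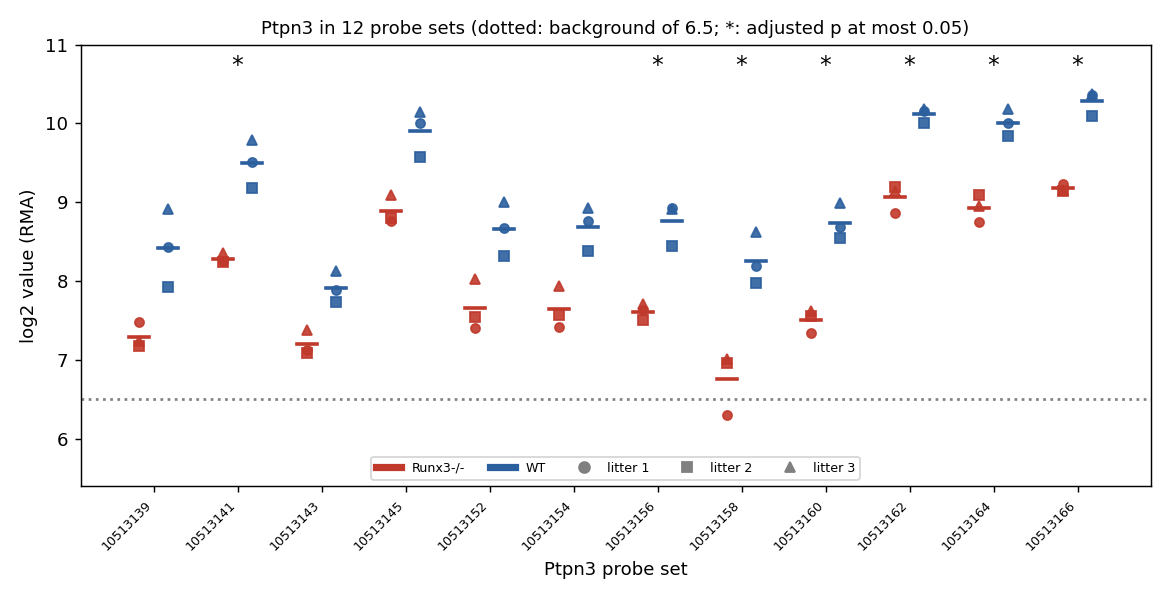
Log2 values of the 12 Ptpn3 probe sets (x axis, by identifier) in each array, Runx3-/- in red to the left of WT in blue, with the symbol giving the litter, short lines the group means and the dotted line the background of 6.5. In each probe set all 3 Runx3-/- values lie below all 3 WT values, and asterisks mark the 7 with an adjusted p of at most 0.05.

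Ptpn4, the closest relative of Ptpn3, did not pass. It stood at 9.46, 9.73 and 9.76 in Runx3-/- DC, against 9.87, 9.69 and 9.91 in WT DC, and the groups overlapped. The log2 change was -0.18 (95% interval -0.44 to 0.09, adjusted p = 0.50). The remaining FERM-domain PTPs, Ptpn13, Ptpn14 and Ptpn21, stayed below background in all arrays.

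Among the receptor-type PTPs 7 of 20 were measured, 1 was called and their median log2 change was 0.03. Ptprm stood at 6.85, 6.88 and 6.73 in Runx3-/- DC, against 5.95, 5.83 and 5.77 in WT DC. All Runx3-/- values lay above background and all WT values below it, so its fold above is a lower bound, with WT set at 6.5. The log2 change as measured was 0.97 (SE 0.08, 95% interval 0.77 to 1.17, limma, adjusted p = 0.013), with littermate differences of 0.90, 1.05 and 0.96. Ptprm is also known from endothelial cells. Of 6 endothelial markers, a list added after the values were seen, 3 were measured, and the summed level was 551 to 683 in Runx3-/- and 438 to 480 in WT arrays. Cdh5 was called higher (log2 change 0.56 as measured, adjusted p = 0.036). Like Ptprm it counts as measured only through its Runx3-/- arrays, all WT values being below background, so its rise is at least 1.30-fold. Kdr stood at 8.05, 6.88 and 8.30 in Runx3-/- DC, against 6.18, 6.55 and 6.30 in WT DC, without overlap (log2 change 1.40, adjusted p = 0.14), while Vwf overlapped (-0.15). Tek, Emcn and Egfl7 were below background on every array. The part of such cells in the Ptprm result was not tested, nor was that of the macrophage and monocyte markers that were higher in the same arrays.

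None of the other 6 measured receptor-type PTPs passed, even at an unadjusted p of 0.05. Ptprc, the leukocyte common antigen CD45, which frees Src-family kinases of an inhibitory phosphate, stood at 13.31, 13.39 and 13.45 in Runx3-/- DC, against 13.38, 13.40 and 13.42 in WT DC. The groups overlapped and the 95% interval of the log2 change was -0.18 to 0.15. Ptprj, or CD148, which acts on the same kinases in myeloid cells and B cells, had a log2 change of 0.06 (-0.10 to 0.23), and 0.13 on its other probe set (adjusted p = 0.42). Ptpra, also an activator of Src kinases, had a change of 0.09 (-0.08 to 0.26). The changes were 0.03 for Ptpro, -0.09 for Ptprs, a receptor for proteoglycans, and -0.10 for Ptpre, all with groups that overlapped. The other 13, from the vascular Ptprb to the neural Ptprz1, were below background: Ptprb, Ptprd, Ptprf, Ptprg, Ptprh, Ptprk, Ptprn, Ptprn2, Ptprq, Ptprr, Ptpru, Ptprv and Ptprz1.

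The SH2-domain PTPs carry the signal of inhibitory receptors (Ptpn6, or SHP-1) and of growth factor receptors (Ptpn11, or SHP-2). Ptpn6 stood at 11.58, 11.68 and 11.70 in Runx3-/- DC, against 11.74, 11.76 and 11.75 in WT DC. The groups did not overlap, yet the log2 change was only -0.10 (95% interval -0.26 to 0.06, adjusted p = 0.52). Ptpn11 overlapped, with a log2 change of 0.03 (-0.18 to 0.23).

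All 3 PEST-type PTPs, which bind the kinase Csk or adaptors of the cytoskeleton, were measured and none was called. Against 19.4% of all measured genes, 1 of the 3 passed an unadjusted p of 0.05. This was Ptpn18, which stood at 7.74, 7.86 and 7.85 in Runx3-/- DC, against 8.59, 8.16 and 8.35 in WT DC. The groups did not overlap, and the log2 change of -0.55 (SE 0.12, 95% interval -0.84 to -0.26) had an adjusted p of 0.0997. Ptpn22, a partner of Csk and a brake on lymphocyte receptors, stood at 11.93, 11.96 and 11.93 in Runx3-/- DC, against 11.84, 11.87 and 11.81 in WT DC, again without overlap, and the log2 change was 0.10 (-0.05 to 0.25). Ptpn12, which acts on focal adhesion proteins, had a change of -0.19 (-0.48 to 0.09) with overlap.

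Of the remaining non-receptor PTPs 5 of 7 were measured, with a median log2 change of 0.21 and none called. Unadjusted, 3 were higher and 1 lower, against 7.59% and 11.8% of all measured genes. Ptpn1 (PTP1B), which sits on the endoplasmic reticulum and dephosphorylates the insulin receptor and JAK kinases, came nearest to the threshold of all members that missed it. It stood at 10.89, 10.70 and 10.59 in Runx3-/- DC, against 10.14, 10.15 and 10.21 in WT DC. All Runx3-/- values were the higher ones, and the log2 change was 0.56 (SE 0.09, 95% interval 0.33 to 0.78, adjusted p = 0.052, range 0.034 to 0.21 over 16 alternatives). It passed with each array centred on its median (0.047), with background reached in 3 arrays (0.046) and with a trended, robust variance (0.034). Ptpn2, the close relative of Ptpn1 that acts on JAK and STAT proteins, overlapped, with a log2 change of 0.09 (-0.14 to 0.33) and of -0.09 on its other probe set.

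Ptpn7, which acts on MAP kinases in blood cells, had a log2 change of 0.28 (adjusted p = 0.27), and Ptpn9, a PTP of secretory vesicles, of 0.21 (0.27). Ptpn23, which takes part in sorting at endosomes, stood at 8.30, 8.33 and 8.10 in Runx3-/- DC, against 8.45, 8.49 and 8.60 in WT DC, a change of -0.27 (-0.49 to -0.04, adjusted p = 0.24). None of these 3 genes had overlapping groups, which held for 28.5% of all measured genes. Ptpn5 and Ptpn20 were below background.

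**Figure D3:**
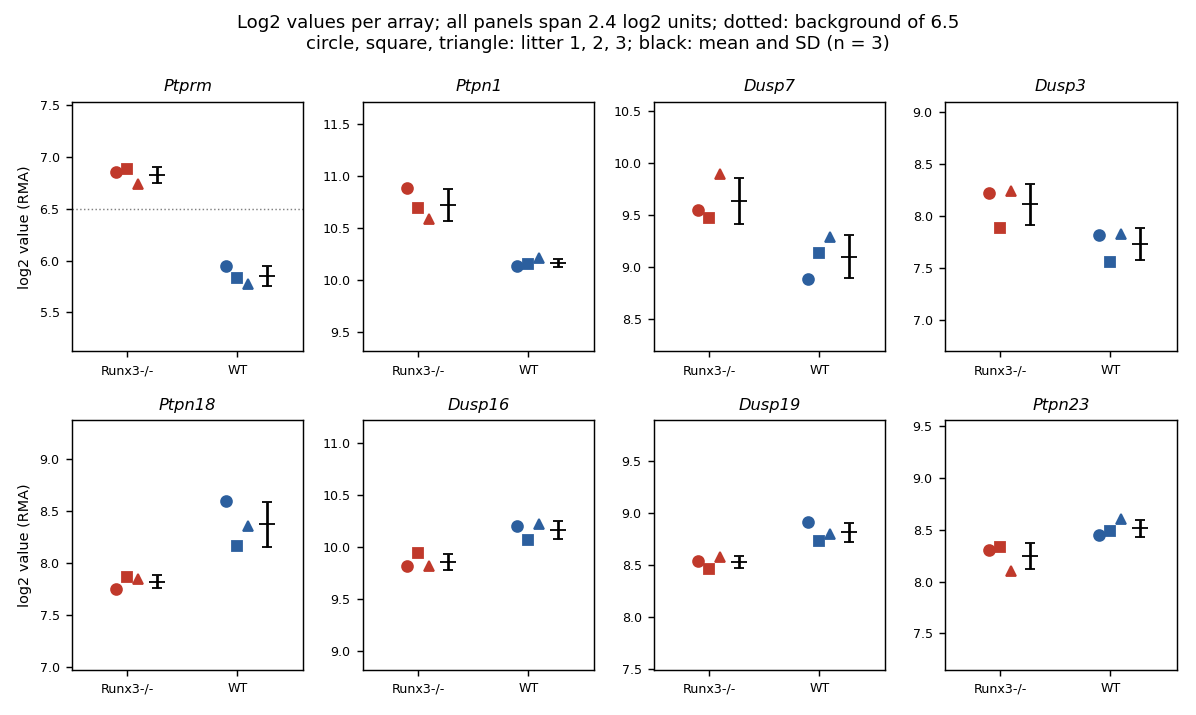
Log2 values per array of 8 of the 12 members with an unadjusted p of at most 0.05, Runx3-/- in red to the left of WT in blue, with the litter as symbol and the mean and SD (n = 3) in black. The groups do not overlap in any panel, and of these 8 genes Ptprm alone passed an adjusted p of 0.05, crossing the background of 6.5 (dotted).

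Among the MAP kinase phosphatases 8 of 10 were measured and none passed the adjusted threshold (limma), with 2 higher and 1 lower at an unadjusted p of 0.05. Their median log2 change was 0.34, with 6 positive and 2 negative. Over all measured genes 4099 changes were positive and 5823 negative, and 7.59% were higher and 11.8% lower unadjusted. In this group Dusp1, Dusp2, Dusp5, Dusp6 and Dusp10 overlapped between the genotypes. Without Dusp9, which reached background only in 1 Runx3-/- array, the median of the other 7 was 0.33, with 5 positive and 2 negative, and 1 higher and 1 lower unadjusted. Dusp7, a cytoplasmic ERK phosphatase, stood at 9.55, 9.48 and 9.90 in Runx3-/- DC, against 8.89, 9.13 and 9.29 in WT DC. The groups did not overlap (log2 change 0.54, SE 0.15, 95% interval 0.17 to 0.90, adjusted p = 0.17). Littermates differed by 0.66, 0.35 and 0.60 in litters 1, 2 and 3, and the highest array of each genotype was that of litter 3. Runx3-/- 3 was also the array with the most plasmacytoid DC marker signal, and without it the change was 0.41 (adjusted p = 0.31). The part of plasmacytoid DC in the Dusp7 values was not tested. Dusp9, an X-linked relative, stood at 6.44, 6.49 and 6.90 in Runx3-/- DC, against 6.31, 6.36 and 6.13 in WT DC, so that 1 of 6 arrays reached background, Runx3-/- 3, without which it is not measured. Its log2 change was 0.35 (95% interval 0.005 to 0.69, adjusted p = 0.31). Dusp16, which prefers JNK and p38, was the 1 member of this group lower at an unadjusted p of 0.05, at 9.81, 9.94 and 9.81 in Runx3-/- DC, against 10.20, 10.07 and 10.22 in WT DC. Its log2 change was -0.31 (SE 0.08, 95% interval -0.50 to -0.12, adjusted p = 0.14), again without overlap. Dusp10, another JNK and p38 phosphatase, had a change of -0.12 with overlap, and Dusp4 and Dusp8 were below background.

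Both litter 3 arrays were the lowest for 3 inducible members of this group, which is 9.38% of the 32 measured members. That share is near the 8.26% of all tested probe sets. Dusp1, the nuclear phosphatase that ends p38 and JNK signalling in stimulated myeloid cells, stood at 12.54, 12.54 and 11.33 in Runx3-/- DC, against 12.37, 12.18 and 10.75 in WT DC. Both litter 3 arrays lay below every array of litters 1 and 2, and litter 3 minus the mean of litters 1 and 2 was -1.37. Within the litters the Runx3-/- array was higher by 0.17, 0.36 and 0.58, and the fitted change was 0.37 (SE 0.52, 95% interval -0.90 to 1.64, adjusted p = 0.79, and 0.21 with the litter block). Dusp2, a nuclear phosphatase of activated leukocytes, stood at 9.08, 9.17 and 8.45 in Runx3-/- DC, against 8.58, 8.56 and 7.91 in WT DC. Its littermate differences were 0.51, 0.61 and 0.54, and its adjusted p was 0.37, and 0.090 with the litter block.

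Dusp6, a cytoplasmic ERK phosphatase that ERK itself induces, had both litter 3 arrays lowest as well, with a log2 change of 0.01 (-0.34 to 0.36) between the genotypes. Dusp5, its nuclear counterpart, did not follow, with litter means of 9.06, 9.15 and 9.32 and a log2 change of 0.33 (-0.004 to 0.66, adjusted p = 0.32). Having both litter 3 arrays lowest was thus seen in 3 of the 32 members (9.38%), near the 8.26% of all tested probe sets. Of 13 measured ERK feedback and immediate early genes it was seen in 6, Fos, Fosb, Egr1, Jun, Junb and Ier2. Fos, an immediate early transcription factor, stood at 9.56, 9.17 and 8.37 in Runx3-/- DC, against 9.73, 9.05 and 6.65 in WT DC. The genotypes overlapped and the litter 3 arrays were the lowest of each.

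**Figure D4:**
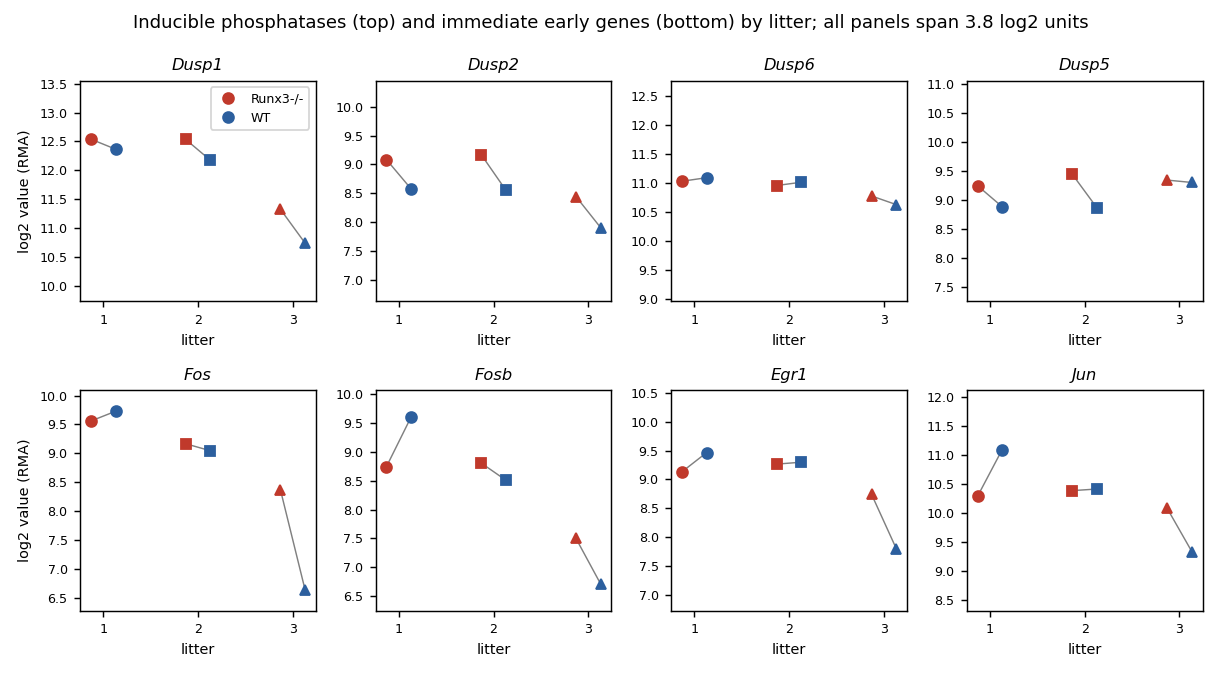
Log2 values by litter (x axis) for 4 inducible MAP kinase phosphatases (top) and 4 immediate early genes (bottom), with Runx3-/- in red to the left of its WT littermate in blue and a line joining them. Litter 3 is lowest for Dusp1, Dusp2 and Dusp6 and for Fos, Fosb, Egr1 and Jun, at -1.37 for Dusp1 and -1.87 for Fos relative to the mean of litters 1 and 2, and not for Dusp5.

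The other dual-specificity phosphatases are a mixed group, of which 5 of 14 were measured, with a median log2 change of -0.05 and none called. Unadjusted, 1 was higher and 1 lower, against 7.59% and 11.8% of all measured genes. Dusp3 (VHR), a small phosphatase of ERK and JNK, stood at 8.21, 7.88 and 8.23 in Runx3-/- DC, against 7.82, 7.55 and 7.82 in WT DC. Its groups did not overlap, with a log2 change of 0.38 (0.07 to 0.69, adjusted p = 0.23). Dusp19, a regulator of JNK signalling, stood at 8.54, 8.47 and 8.58 in Runx3-/- DC, against 8.92, 8.74 and 8.80 in WT DC, with a change of -0.29 (-0.48 to -0.10, adjusted p = 0.16) and no overlap. Dusp22, which in T cells acts on Lck, had a change of -0.17 (-0.42 to 0.07), Dusp11, which removes phosphates from the ends of RNA, of -0.05 (-0.21 to 0.11) and Dusp12, a zinc-binding member, of 0.02 (-0.36 to 0.39), all with overlap. Dusp13, Dusp14, Dusp15, Dusp18, Dusp21, Dusp23, Dusp26, Dusp27 and Dusp28 were below background.

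The border between measured and not measured ran close to some members. Just below it lay Dusp14, whose highest array was at 6.46, and Dusp23 at 6.37. Just above it lay Ptprm at 6.88 and Dusp9 at 6.90. Over the 29 members that were not measured the highest array ranged from 4.57 to 6.46. Over the 32 measured members the 95% interval of the change lay within a 1.5-fold difference in either direction for 22 and within a 2-fold difference for 28.

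Genes around the phosphatases were read from 5 lists. Over all measured genes 1.36% were called higher and 0.907% lower, and 7.59% were higher and 11.8% lower at an unadjusted p of 0.05. Of 28 measured related phosphatases outside the family names, 0 passed the adjusted threshold (limma) while 0 were higher and 7 lower at an unadjusted p of 0.05, with a median log2 change of -0.09. The smallest p among them belonged to the lipid phosphatases Mtmr14 (log2 change -0.45, adjusted p = 0.11) and Mtmr1 (-0.31, 0.16). Of 28 measured MAP kinase pathway genes, which include the MAP kinases that Dusp proteins dephosphorylate, 0 passed, with 3 higher and 5 lower unadjusted and a median of -0.07. Mapk11, a p38 kinase, stood at 8.81, 9.14 and 9.41 in Runx3-/- DC, against 10.70, 9.78 and 10.24 in WT DC. The groups did not overlap, but with an SE of 0.26 the log2 change of -1.12 did not pass (adjusted p = 0.11), and neither did that of Mapkapk2, a kinase downstream of p38 (0.23, 0.16).

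Of 13 measured ERK feedback and immediate early genes 1 rose. Etv5, an ETS factor induced by ERK, stood at 9.48, 9.83 and 9.60 in Runx3-/- DC, against 8.34, 8.30 and 8.05 in WT DC, which is 2.64-fold higher (log2 change 1.40, limma, adjusted p = 0.014). The median of the list was 0.07. Of 29 measured Src-family kinases and their substrates, on which many PTPs act, 1 rose and 1 fell, with a median of -0.03. Unadjusted, 6 were higher and 3 lower. Among the 6, Dok2 and Src count as measured only through Runx3-/- arrays. Dok3, an adaptor that restrains B cell and myeloid receptors, stood at 7.60, 7.53 and 7.59 in Runx3-/- DC, against 6.78, 6.72 and 6.66 in WT DC, 1.81-fold higher (adjusted p = 0.013). Blk, a Src-family kinase best known from B cells, stood at 6.92, 6.77 and 6.77 in Runx3-/- DC, against 8.18, 7.80 and 7.76 in WT DC, 2.13-fold lower (adjusted p = 0.023). Both were without overlap. B cell markers summed to 1689 to 1798 in Runx3-/- and 1080 to 1539 in WT arrays. Of the 3 measured ones Cd79b was higher in Runx3-/- without overlap (log2 change 0.58, limma, adjusted p = 0.077). Ms4a1 and Cd79a overlapped between genotypes. The part of B cells in the Blk result was not tested.

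Of 22 measured receptors listed for inhibitory or switch motifs, many of which recruit Ptpn6 and Ptpn11, 3 were called higher and none lower. At an unadjusted p of 0.05, 6 were higher and 4 lower, and the median log2 change was 0.09. Among the 6, Klra2 counts as measured only through Runx3-/- arrays. Siglech, used above as a plasmacytoid DC marker, is in the list (log2 change 1.18, not called). Whether it or each other listed receptor carries such a motif was not checked. Clec12a, a C-type lectin with an inhibitory motif, stood at 10.80, 10.52 and 10.83 in Runx3-/- DC, against 9.28, 9.26 and 9.34 in WT DC, 2.69-fold higher (limma, adjusted p = 0.011). Pilra, an inhibitory receptor of myeloid cells, was 2.54-fold higher (0.019) and Cd84, a SLAM-family receptor with switch motifs, 2.21-fold higher (0.014). None of the 3 overlapped between genotypes. With the litter block the adjusted p of the 6 called genes of these lists was 0.069 to 0.089, above the threshold. All 6 also lost the call without Runx3-/- 3 or without WT 1 (adjusted p 0.052 to 0.085), and Blk lost it whichever array was left out (0.053 to 0.088). Without Runx3-/- 1, Cd84, Pilra and Dok3 lost it too (0.0503 to 0.0735), while Etv5 and Clec12a kept it (0.045 each). With the one-way analysis of variance that the study's methods name, all 6 lost it (0.061 to 0.126). Macrophage and monocyte markers were higher in the same Runx3-/- arrays, as given above, and their part in these rises was not tested.

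**Figure D5:**
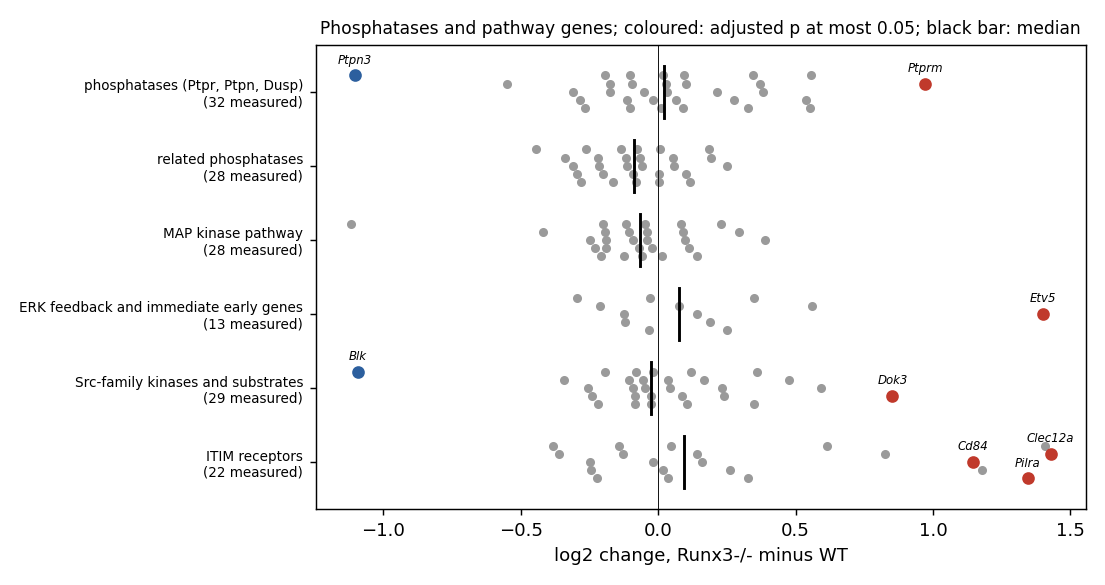
Log2 change (Runx3-/- minus WT, x axis) of each measured gene, 1 point per gene, for the phosphatases and the 5 lists around them, with the list median as a black bar. Coloured and named points passed an adjusted p of 0.05 (red higher, blue lower in Runx3-/-), 2 of 32 phosphatases and 6 genes over the other lists, and the list medians lie between -0.09 and 0.09.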

How the data were processed

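Gene expression was measured on 1 Affymetrix array per mouse. Before they deposited the log2 values, the authors ran RMA (robust multichip averaging) with a GC correction in Partek Genomics Suite. RMA brings all arrays to 1 distribution, which hides a shift common to most genes, and it compresses folds near background. Software versions: not given in the sources used here. The submitters' processing notes name mm9. An exon array is named in the methods, but the identifiers of the value table belong to a gene-level array. The labels and the methods name different RNA kits. Probe sets reaching 6.5 in at least 1 array (19149 of 35399) were tested in R 4.3.3 with limma 3.58.1, two-sided, on genotype alone, with Benjamini-Hochberg adjustment over all of them and a threshold of 0.05. The one-way analysis of variance that the study's methods name and their thresholds of p 0.05 and 1.5-fold were alternatives, beside quantile normalization, median centring, other filters, trended robust limma, the mean of a gene's probe sets and leaving out each array. A group wholly below 6.5 enters a fold at 6.5. The number of arrays limits the precision.

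Replicates are mice. The labels pair them as littermates. Deviations from the group means had a Pearson r over probe sets of 0.158, 0.102 and 0.246 between littermates, against -0.23 to 0.103 for other pairs. In litter 2 the littermate value of 0.102 did not exceed the 0.103 of Runx3-/- 2 with WT 1. The methods name no litter term, so the fit with the litter as a block is an alternative. Named genes were members past the adjusted threshold or past p 0.05 with 1.5-fold, the 2 members of each role group with the smallest p and the 2 with the highest mean, those nearest background, and in each list the called genes or otherwise the 2 with the smallest p. The members, this rule and the lists were chosen with earlier results of these data known, and members named outside the rule were named after their values were seen, as were the litter and endothelial readings. Symbols are those of the platform annotation, and all 76 probe sets matched RefSeq (GRCm38.p6) by gene number. No probe set with several symbols named a member.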

Additional observations from a re-analysis of the deposited data

How the results depend on the processing

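With the litter as a replicate block 0 members were called in either direction, 0 of all probe sets in either direction and 0 of the Ptpn3 probe sets (12 at an unadjusted p of 0.05), and Runx3 (-1.98) had an adjusted p of 0.061. With the methods' analysis of variance the counts were 0 higher and 0 lower for members (5 and 5 unadjusted), 2 and 4 for all probe sets, and 0 for Ptpn3 probe sets. Without litter 3, chosen after seeing the data, they were 0 and 0 for members (5 and 4 unadjusted), 0 and 0 for all probe sets and 0 for Ptpn3 probe sets, with Runx3 at -1.999 (adjusted p = 0.12). The study's thresholds called 385 and 372 probe sets and 12 of Ptpn3. Median centring, the filter in 3 arrays and trended robust limma each called 2 members higher, Ptpn1 being added. The members' median change was 0.047 with quantile normalization, 0.062 with median centring and -0.022 without litter 3.

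Leaving out 1 array at a time gave 0 to 1 members higher and 0 to 1 lower, 0 to 125 probe sets higher and 0 to 80 lower, and 0 to 7 Ptpn3 probe sets, with 2 left without WT 3 and 4 without Runx3-/- 2. Here the members' median was 0.0057 to 0.054, the Ptpn3 mean -1.24 to -0.98, and Runx3 -2.03 to -1.96, with adjusted p of 0.053 without WT 1. Changes near 0 turned round. Ptprc was 0.023 with median centring and -0.049 to 0.018 over the arrays left out. Dusp6 was -0.059 without litter 3 and -0.13 to 0.10 over the arrays left out, Ptpn11 -0.022 and -0.019 to 0.081, and Dusp1 -0.14 to 0.77 over the arrays left out, -0.14 being without WT 3. Ptpn3 and Ptprm kept their direction in all 16 alternatives with an adjusted p and passed in 10 each (adjusted p 0.0083 to 0.15 and 0.011 to 0.14). The cause of these differences was not tested. Fewer arrays also leave the fit fewer degrees of freedom, and members near 6.5 have folds that the background limits.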
